A study of Mus musculus with 3 samples.

Results

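The genes described here are the mouse zinc finger genes whose symbol is Zfp followed by a number from 1 to 500 and nothing else. Zfp36, which encodes an RNA-binding protein of another fold, was left out. Of 19938 genes with a probe set of their own, 146 met this rule, and of these 78 exceeded the background limit of every array while 63 exceeded none. They were measured in DP thymocytes, developing T cells that are positive for CD4 and for CD8 at the same time. All 3 samples were wild-type C57BL/6 mice aged 5 to 6 weeks, each a cohort of littermates, which the labels give as the biological replicate, sorted with beads for CD8 and then CD4, and total RNA from each was hybridised to 1 Affymetrix array. There was no second genotype, treatment or stage, so the members could be compared with the other genes of these cells and between the cohorts. The study around them charted where Ets1, Runx1, polymerase II and modified histones lie in thymocyte chromatin. Members were chosen by symbol, the probe set of each was selected on its 3-array mean as the brightest, and the family was picked with its slightly lower values on array 1 in view. Those values are descriptions and carry no test.

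Most Zfp genes encode proteins with a row of C2H2 zinc fingers, each a small loop held by a zinc ion that reads a few bases of DNA. In many of them the fingers follow a KRAB domain, which recruits the corepressor Trim28 and with it the methyltransferase Setdb1, heterochromatin proteins and histone deacetylases. KRAB zinc finger proteins are known for silencing transposable elements and for keeping imprints. Their genes sit in runs of neighbouring copies that grew by duplication, so members share sequence. A minority of the genes named Zfp instead encode activators, RNA-binding proteins, spindle proteins or enzymes of protein modification.

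The label of the cells was borne out by their markers. All 8 DP markers measured, among them Cd4, Cd8a, Cd8b1, Rag1 and Dntt, lay above the background limit of each array. This limit, the 95th percentile over 96 probe sets whose genes belong to organs other than the thymus, stood at 7.28, 7.44 and 7.37 (log2) on arrays 1, 2 and 3. None of 4 B cell, 4 erythroid and 6 thymic epithelial markers exceeded it on every array. Of 7 dendritic and myeloid markers 1 did, H2-Ab1, and Cd74 exceeded it on arrays 1 and 3. The epithelial markers Krt8 and Krt18 exceeded it on array 3 only, with 7.55 and 7.58. The libraries differed in the sex of the mice. Xist had 11.65, 5.40 and 5.68 and the Y-linked gene Uty 4.00, 8.96 and 8.98 on arrays 1, 2 and 3, so array 1 stands apart from the other arrays by sex as well as by cohort.

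A sequence feature of the promoters, which the rule did not use, was shared by many of these genes and is shown first. RefSeq promoter windows (GRCm38.p6), which run from 250 bases before the gene start to 50 bases after it, were found for 117 of the 146 members, 145 windows in all. The 6 letters ACTACA, with which the DNA element bound by Zfp143 begins, were present on either strand in 46 of the 145 windows (31.7%), against 10.3% of all 32851 windows of the same length. Aligned on them, 53 sites of the members shared more than these letters, and the bases common to over 65% of the sites gave the longer form ACTACANNTCCCA, with N for any base. This form was first read off the sites by eye, and the 65% was set afterwards and returns it. The next base, a T at position 8 counted from the first A, was shared by 64.2% of the sites and falls just outside, and the last A, at position 13, was shared by 69.8%. It was present in 30 of the 145 windows (20.7%), those of 29 members, against 1.47% of all windows, a gap that is in part by construction since the form was built on the members. In genes it was not built on, it was in 10.9% of 258 windows of the other Zfp genes and in 0 of 48 windows of Zbtb genes, another family of zinc finger factors, which allows a share of up to 6.25%. ACTACA alone was in 0 of these 48 windows too. The Zbtb windows also differ in base composition, with a median GC content of 64.3% against 55.3% for the members' windows. A match is a description of these letters and not evidence of a bound factor. Neighbouring Zfp genes, members or not, are related by descent, so the other Zfp genes are no independent check of the form. Zfp143 itself was not analysed here.

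The sites of the longest run of neighbouring members, on chromosome 7, are printed first because 6 of its 9 members with a window carry the element. All are given 5′ to 3′ on the strand that reads ACTACA, which in each of these is the strand opposite to the gene, with the matched 13 bases in capitals and 10 bases on either side. They lie at chr7:24081863-24081895 (Zfp180), chr7:24112160-24112192 and chr7:24112254-24112286 (Zfp112), chr7:24208192-24208224 (Zfp111), chr7:24237702-24237734 (Zfp109), chr7:24254659-24254691 and chr7:24254715-24254747 (Zfp108) and chr7:24270335-24270367 (Zfp93), all upstream of the gene start.
Zfp180: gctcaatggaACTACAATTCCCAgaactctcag
Zfp112, far site: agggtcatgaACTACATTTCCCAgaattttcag
Zfp112, near site: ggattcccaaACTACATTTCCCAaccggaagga
Zfp111: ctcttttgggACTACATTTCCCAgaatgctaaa
Zfp109: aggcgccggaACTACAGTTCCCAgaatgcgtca
Zfp108, far site: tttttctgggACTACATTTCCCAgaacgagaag
Zfp108, near site: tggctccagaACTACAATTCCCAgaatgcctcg
Zfp93: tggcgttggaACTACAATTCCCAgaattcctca
In 7 of these 8 lines the bases gaa follow the capitals directly, which the pattern did not ask for.

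Of the 13 members with a window on chromosome 13, 7 carried closely similar stretches with a shared continuation. Those of Zfp72 (chr13:74390861-74390893), Zfp455 (chr13:67194439-67194471), Zfp458 (chr13:67269151-67269183), Zfp457 (chr13:67306470-67306502), Zfp456 (chr13:67375811-67375843), Zfp58 (chr13:67500532-67500564) and Zfp273 (chr13:67813738-67813770) are printed in the same way, again from the strand opposite to each gene, to show the shared bases beyond the capitals.
Zfp72: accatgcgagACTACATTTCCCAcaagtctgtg
Zfp455: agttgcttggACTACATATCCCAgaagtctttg
Zfp458: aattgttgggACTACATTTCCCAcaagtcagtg
Zfp457: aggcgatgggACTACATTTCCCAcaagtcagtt
Zfp456: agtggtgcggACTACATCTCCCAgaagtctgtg
Zfp58: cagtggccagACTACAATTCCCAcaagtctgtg
Zfp273: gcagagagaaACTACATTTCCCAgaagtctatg
All 7 lines continue with the bases aagtc after the first base that follows the capitals. In the lines of Zfp455, Zfp456 and Zfp273 the capitals are also followed by gaa, so gaa is not particular to the run on chromosome 7.

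Taken over all members, the element was found 33 times, in 29 genes, 32 times upstream of the gene start and 26 times on the strand opposite to the gene. The median position of its first base on the gene strand was 68.0 bases before the start. By place, 15 of 31 members with a window on chromosome 7 and 7 of 13 on chromosome 13 carried it, against 0 of 13 on chromosome 17, which also holds a run of neighbouring Zfp genes. The upstream windows of the neighbours Zfp180 and Zfp112 are shown whole because both carry the element while their array values lie on different sides of the background limit. Both are on the plus strand and read towards the gene, so the capitals show the element in its opposite reading, TGGGANNTGTAGT.
Zfp180, chr7:24081647-24081896: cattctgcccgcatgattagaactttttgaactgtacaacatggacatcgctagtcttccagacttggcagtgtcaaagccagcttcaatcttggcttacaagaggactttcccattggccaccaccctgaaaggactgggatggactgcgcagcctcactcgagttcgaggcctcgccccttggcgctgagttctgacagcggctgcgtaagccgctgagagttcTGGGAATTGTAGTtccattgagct
Zfp112, chr7:24112070-24112319: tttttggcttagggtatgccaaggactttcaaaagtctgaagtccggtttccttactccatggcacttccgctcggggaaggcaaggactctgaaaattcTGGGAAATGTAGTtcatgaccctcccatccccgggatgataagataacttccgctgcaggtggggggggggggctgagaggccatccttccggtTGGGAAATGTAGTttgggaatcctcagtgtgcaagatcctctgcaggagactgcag
The match of Zfp180 begins at -24 on the gene strand, relative to the gene start, and those of Zfp112 at -150 and -56. Zfp112 has a further match at 32, past its start, which is not printed.

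The other motifs, each searched on both strands, differed by smaller ratios than the longer form, but that form was built on the members. The 6 letters ACTACA alone, at 31.7% against 10.3%, differed on a scale like that of the ETS and NRF1 sites. The other motifs were chosen after the array values were known, and no test was made of their shares. CCGGAAG, a site of ETS factors such as Ets1, was in 22.8% of the members' windows against 8.86% of all windows, in 20.2% of those of the other Zfp genes and in 25.0% of the Zbtb windows. GCATGCGC, of the site of NRF1, was in 8.28% against 2.71%, in 3.1% of the windows of the other Zfp genes and in 10.4% of the Zbtb windows, above the members. It was shortened after a longer form, also more frequent in the members, had been counted. AAGATGGC and GATGGCGGC, overlapping stretches of the site of YY1, were in 5.52% against 2.75% and in 1.38% against 1.03%, and they replace a longer form counted earlier that held both. Variants of the Zfp143 element with a fixed AATTC stretch were counted earlier too and are not given. TGTGGT, the core bound by RUNX factors, was in 10.3% against 16.8%. It was in 20.5% of the windows of the other Zfp genes and in 22.9% of the Zbtb windows, both above all windows. The E-boxes CAGGTG and CAGCTG, read by E proteins such as E47, were in 13.1% against 20.2% and in 15.9% against 16.3%. GGGCGGGG, the GC box, was in 19.3% against 17.6%. The windows of the members had a median GC content of 55.3%, against 52.7% for all windows, and a CpG ratio (observed over that given by base composition) of 0.67 against 0.38. Those of the other Zfp genes had 54.3% and 0.6, and the Zbtb windows 64.3% and 0.81. Base composition therefore differs as well, and its part in the motif shares was not tested.

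**Figure D1:**
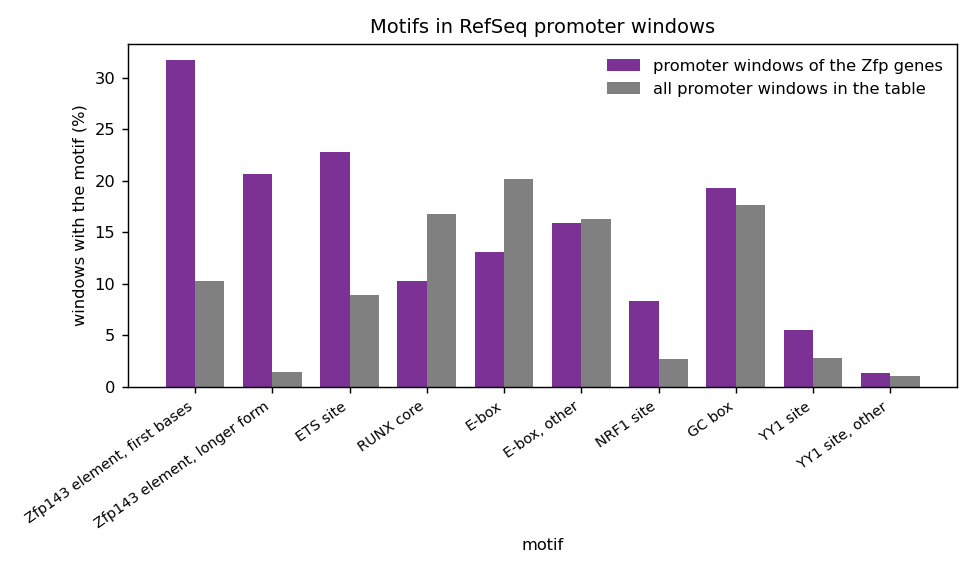
Share of RefSeq promoter windows (y axis, percent) that hold each of 10 motifs searched (x axis), for the 145 windows of the Zfp genes (purple) and all 32851 windows (grey). The longer form of the Zfp143 element stands at 20.7% against 1.47%, a gap that is in part by construction, since the form was built on the members' sites.

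On the arrays the family was divided. The 78 of 146 members above background on every array make 53.4%, against 41.6% of all named genes, and the 63 above it on no array make 43.2%, against 55.0%. A further 5 did so on 2 arrays, namely Zfp235, Zfp60, Zfp41, Zfp457 and Zfp160. The median of the members' 3-array means was 7.67, against 6.85 for all named genes, and the means ran from 2.78 for Zfp345 to 10.58 for Zfp330. Among genes above background the order was turned, with a median of 8.79 for the 78 members against 9.07 for the 8304 named genes. The 170 Zfp genes numbered above the range, with 50.0% above background and a median of 7.49, and the 40 Zbtb genes, with 75.0% and 8.21, stood on either side of the members in level. The brightness of a probe set depends on its probes as well as on the RNA, so the order of the members by value is not an order of their RNA levels, and single genes were read against the background limit.

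**Figure D2:**
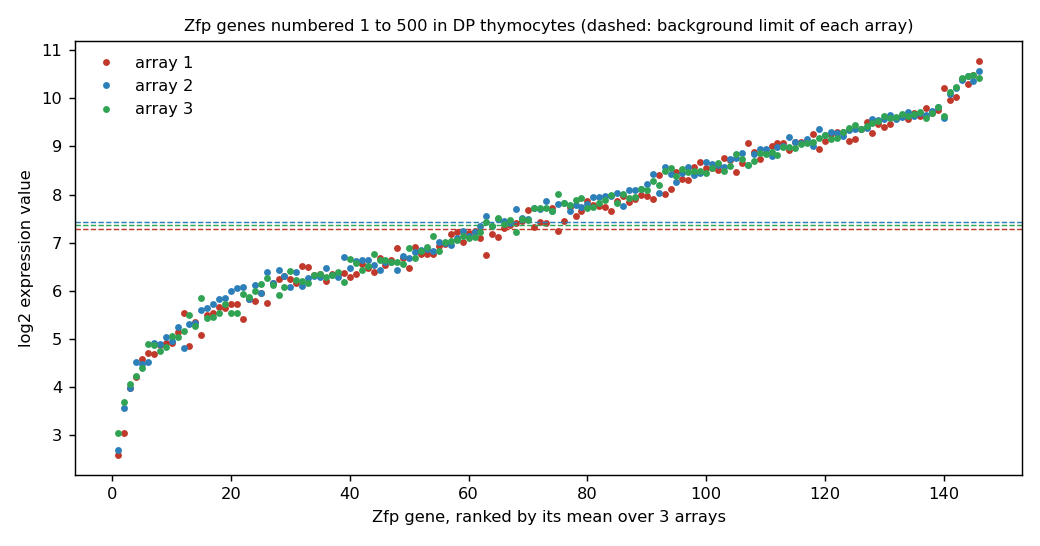
Log2 expression value (y axis) of each of the 146 Zfp genes on arrays 1, 2 and 3 (coloured points), placed in the order of the 3-array mean (x axis), with the background limit of each array as a dashed line of the same colour. 78 genes lie above all 3 limits, and the 3 points of a gene mostly lie close together.

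The median SD over the 3 arrays was 0.107 for the members and 0.111 for all named genes. In these bulk samples fewer cells that express a gene and less of its RNA per cell cannot be told apart.

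Members listed under T cell and lymphocyte roles were above background in 5 of 5 measured cases, against 53.4% of all members, although the list also holds GC-box factors and a corepressor-binding protein with broader tasks. Zfp335 is part of a coactivator complex for H3K4 methylation that maturing T cells need, and it had 9.12, 9.23 and 9.23 on arrays 1, 2 and 3 (9.19 ± 0.06, SD, n = 3). Zfp148, also called ZBP-89, had 10.39, 10.38 and 10.42, and Zfp281, a related GC-box factor of stem cells, had 9.70, 9.64 and 9.67, with SDs of 0.02 and 0.03 over the cohorts. Zfp217, which binds corepressor complexes, had 9.11, 9.33 and 9.38. Zfp318, which B cells need to make IgD transcripts, was the nearest of this group to background, with 7.75, 7.97 and 7.88, and under a limit at the 99th percentile, 8.03 on array 1, it would not pass. Zfp91, the remaining gene of the group, was not analysed here.

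Of the members listed as general activators and promoter factors, 5 of 6 measured were above background, against 53.4% of all members. Zfp410, which activates the gene of the remodeler Chd4, had 9.96, 10.09 and 10.12. Zfp384, a factor that binds runs of A and T and is a fusion partner in leukaemia, had 9.47, 9.65 and 9.59. Both were lowest on array 1 by little more than their SD of 0.09. Zfp263, with SCAN and KRAB domains, had 8.88, 8.84 and 8.70, and Zfp219, a partner of Sox9, had 9.09, 9.09 and 8.96. Zfp292, a large zinc finger protein, had 10.48, 10.35 and 10.48. Zfp462, a large protein of chromatin and stem cells, was the exception, below background with 6.16, 6.40 and 6.23.

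Members that act on RNA, the spindle or other proteins were above background in 6 of 7 cases, against 53.4% of all members. The groups are small and were chosen by hand, so such counts describe the genes listed and not their class. Zfp207 (BuGZ), which binds Bub3 at the spindle, had 10.30, 10.45 and 10.47. Zfp330, a nucleolar protein, had 10.77, 10.57 and 10.41, a spread that was wider (SD 0.18) than that of Zfp207 (0.09). Zfp106, an RNA-binding protein, had 9.62, 9.69 and 9.72. Zfp451, a SUMO ligase, had 9.08, 9.06 and 9.05, with an SD of 0.02. Zfp346, which binds double-stranded RNA, had 8.30, 8.57 and 8.46. Zfp473, of histone pre-mRNA processing, was below background, with 6.28, 6.48 and 6.66.

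KRAB repressors with a known task were divided. Zfp445 and Zfp57 both protect DNA methylation at imprinted genes, yet only the former was above background, with 10.02, 10.21 and 10.23, whereas Zfp57 had 5.84, 5.83 and 5.88. Zfp110 and Zfp369, a pair of paralogs that bind the neurotrophin receptor Ngfr, had 9.37, 9.35 and 9.37, and 9.25, 9.30 and 9.15. Neither differed between cohorts by more than 0.15. Zfp157, of mammary gland development, had 8.11, 8.42 and 8.55. Zfp30 (6.56, 6.63 and 6.43) and Zfp90 (7.21, 7.14 and 7.09) lay below background, the latter by 0.07 at its nearest. In all, 4 of 7 measured members of this group passed the limit on every array, which is near the 53.4% of all members.

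Factors of germ cells, stem cells and other tissues were not above background on any array. Zfp42, the pluripotency marker Rex1, had 4.22, 4.53 and 4.23. Zfp423, a regulator of fat cell precursors, had 6.69, 6.72 and 6.56. The other 6 measured were Zfp296, Zfp352, Zfp488, Zfp467, Zfp37 and Zfp105, with means from 4.71 for Zfp105 to 6.61 for Zfp296. This group counted 0 of 8, against 53.4% of all members. The 33 measured members with a listed role together counted 20, near that share. Zfp59 of this group and Zfp69 of the KRAB group were not analysed here.

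**Figure D3:**
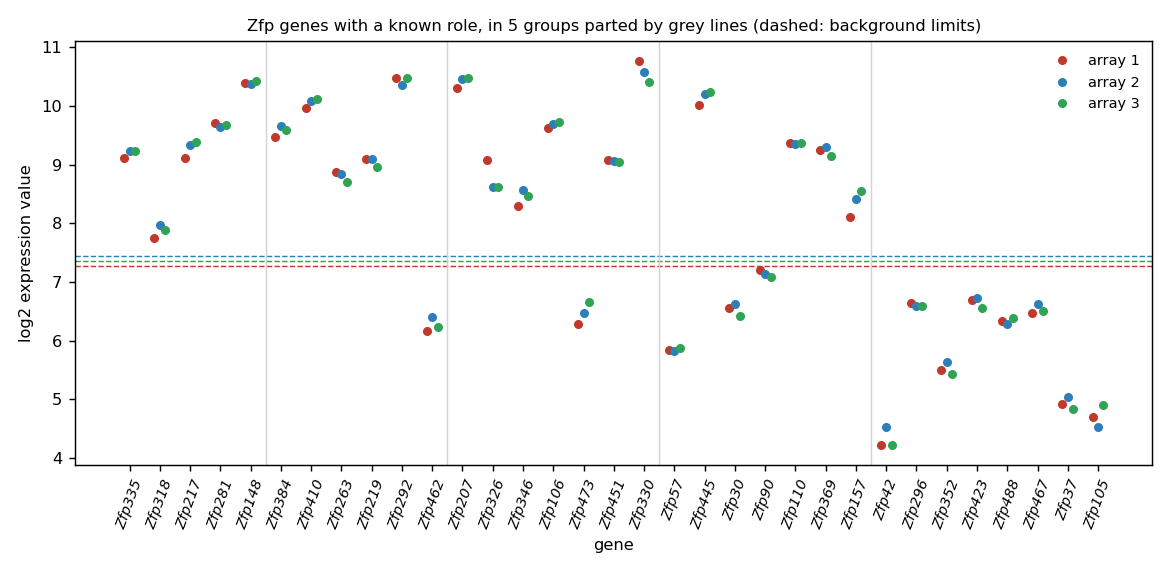
Log2 expression values (y axis) of the 33 measured Zfp genes with a known role (x axis), in the 5 groups of the text from left to right, parted by grey lines. Points are the 3 arrays and dashed lines the background limits. All 8 genes of the rightmost group lie below the limits.

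The partners that KRAB zinc finger proteins work with were present at high values. Of 24 measured genes of that machinery, 23 lay above background on all arrays, against 41.6% of all named genes, with a median of 10.23. Trim28, the corepressor that binds KRAB, had 11.46, 11.36 and 11.31, and Setdb1, the H3K9 methyltransferase it recruits, had 9.27, 9.46 and 9.43. The heterochromatin protein genes Cbx1, Cbx3 and Cbx5 had 10.09 ± 0.05, 11.32 ± 0.09 and 10.02 ± 0.14 (SD, n = 3). The deacetylases Hdac1 and Hdac2 had 11.45 ± 0.15 and 11.12 ± 0.09, and Chd4, the NuRD remodeler whose gene Zfp410 activates, had 11.64 ± 0.11. The maintenance methylation genes Dnmt1 and Uhrf1 had 11.00 ± 0.02 and 11.17 ± 0.07. Further members above background were Atf7ip, Mta1, Mta2, Rbbp4, Rbbp7, Smarcad1, Dnmt3a, Ehmt1, Ehmt2, Atrx, Daxx, Morc3 and Pphln1. Suv39h2, an H3K9 methyltransferase, was the exception, with 7.47, 7.21 and 7.39, above the limit on 2 arrays.

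Members that lie next to each other were found on the same and on different sides of the background limit. In the RefSeq gene order of GRCm38.p6, 56 members formed 21 runs in which the next protein-coding gene was again a member, and 33 of the 146 were on chromosome 7. In 5 runs all members lay above background on every array, in 6 none did and in 10 some did. Of the 35 neighbouring pairs, 10 were both above, 10 were both not above and 15 were split. Of the members in runs 48.2% were above background and of the other 90 members 56.7%.

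The longest run held 10 members in the order Zfp180, Zfp112, Zfp235, Zfp114, Zfp111, Zfp109, Zfp108, Zfp93, Zfp61 and Zfp94, of which 4 were above background. Zfp180, at 1 end, had 9.30, 9.22 and 9.29, above every limit, and its neighbour Zfp112 had 6.16, 6.16 and 6.12, below every limit, with SDs of 0.04 and 0.02 over the cohorts. Both carry the element printed above. Zfp109 (7.41, 7.86 and 7.71), Zfp93 (7.75, 7.65 and 7.78) and Zfp61 (7.84, 8.10 and 7.93) were the others above the limit. Zfp114 and Zfp111, between Zfp235 and Zfp109, had means of 5.74 and 5.78. Probes of such related genes may share targets: 1 probe set assigned to Zfp114, Zfp109, Zfp111, Zfp108, Zfp94 and Zfp93 together had 8.72, 8.56 and 8.85, above the limits although Zfp114, Zfp111, Zfp108 and Zfp94 were below them by their own probe sets. It was used for no gene.

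**Figure D4:**
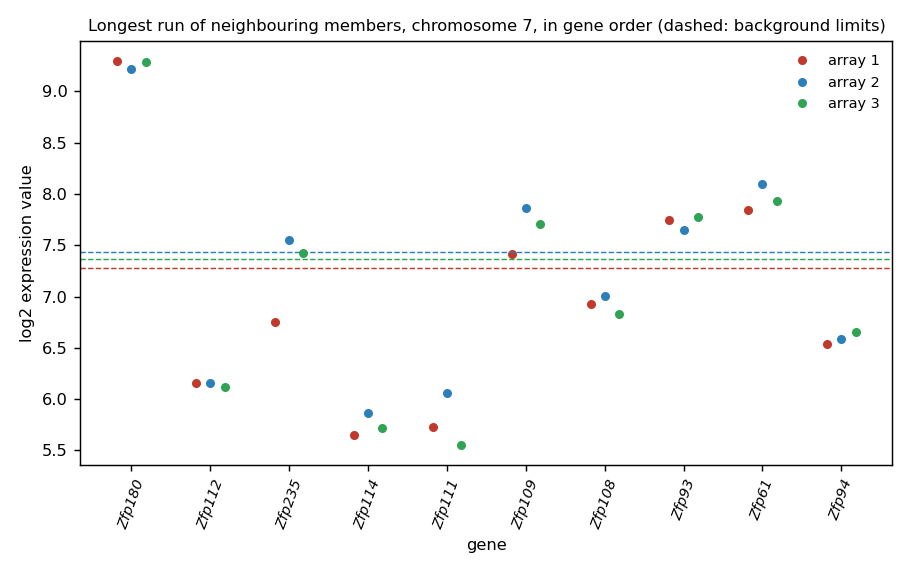
Log2 expression values (y axis) of the 10 neighbouring Zfp genes of the longest run on chromosome 7, in gene order (x axis), on 3 arrays (points), with the background limits dashed. Zfp180, Zfp109, Zfp93 and Zfp61 lie above all limits, while Zfp112, beside Zfp180, lies below them.

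Of the other runs some were uniform and some mixed. The 3 neighbours Zfp398, Zfp282 and Zfp212 on chromosome 6 had means of 9.11, 8.61 and 9.68, all above background. Zfp397, Zfp35 and Zfp24 on chromosome 18 were likewise above it, with 9.16, 7.88 and 9.44. On chromosome 13 Zfp455, Zfp458 and Zfp457 had 5.32, 6.91 and 7.44, and none passed on every array. In the run Zfp54, Zfp51, Zfp53 and Zfp52 on chromosome 17 the inner genes were above (7.91 and 8.55) and the outer ones below (6.57 and 6.31). Of the 29 members with the promoter element 11 were above background on all arrays, 2 on 2 arrays and 16 on none, and of the 88 with a window but without it 50 were above, with median levels of 7.22 and 7.84. Windows were at hand for 61 of the 78 members above background (78.2%), under the 80% set for such a check, so the check of this split is void.

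The family was slightly lower on array 1, as its selection states, and this is given as a description with no test. The median deviation of the members from their own 3-array mean was -0.032, 0.035 and 0.007 on arrays 1, 2 and 3, against -0.010, 0.007 and 0.000 for all named genes. Of the 146 members 69 (47.3%) were lowest on array 1, against 39.3% of all named genes. On array 2 30 were lowest (20.5%, against 27.8%) and on array 3 44 (30.1%, against 29.4%). Array 1 lay more than 0.25 below the mean of arrays 2 and 3 for 25 members (17.1%), against 10.7% of all named genes. It lay more than 0.25 above that mean for 8 (5.48%), against 11.0%. Arrays 2 and 3 differed by more than 0.25 for 13 of the 146 members, against 2695 of the 19938 named genes. The Zfp genes numbered above the range deviated by -0.052 on array 1 and the Zbtb genes by -0.012.

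**Figure D5:**
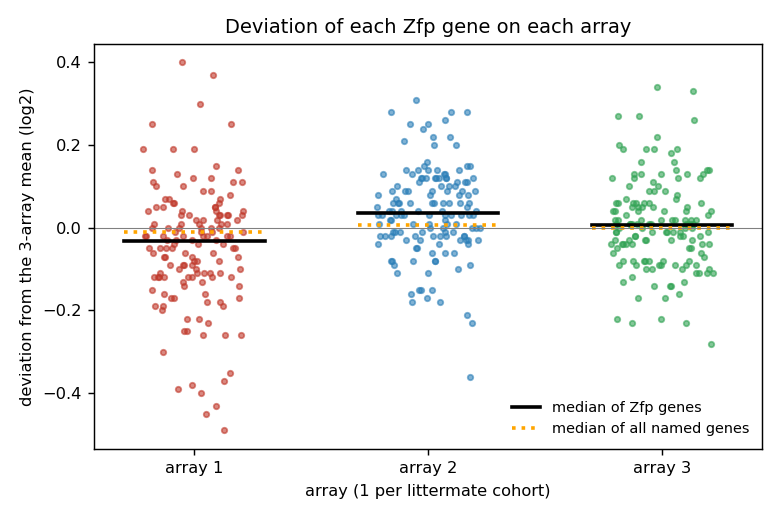
Deviation of each of the 146 Zfp genes from its 3-array mean (y axis, log2) on arrays 1, 2 and 3 (x axis), with the median of the members (black) and of all named genes (dotted orange). The members' medians are -0.032, 0.035 and 0.007.

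Members differed in their direction on array 1. Zfp235 had 6.75, 7.55 and 7.42 on arrays 1, 2 and 3, Zfp160 had 7.24, 7.80 and 8.02 and Zfp72 had 5.08, 5.60 and 5.85. Zfp184 (5.41, 6.09 and 5.94), Zfp442 (3.04, 3.57 and 3.69) and Zfp120 (5.75, 6.39 and 6.26) were also low on array 1, with all of these but Zfp235 and Zfp160 below background throughout. These 6 genes were named for a low array 1 value or, for Zfp120, a large SD. That array 1 lay below both other arrays in each therefore largely follows from the choice. Arrays 2 and 3 lay within 0.25 of each other in each of them. Zfp367 went the other way, with 10.21, 9.58 and 9.64, and so did Zfp326, part of a complex that links RNA polymerase II to splicing, with 9.07, 8.62 and 8.61. Zfp300 (5.54, 4.81 and 5.16), Zfp202 (6.89, 6.43 and 6.59) and Zfp248 (6.52, 6.10 and 6.20) were highest on array 1 at values below background.

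Variation between the cohorts beyond that of probe sets of like level was looked for with limma. The limma variance test over 28939 probe sets (intercept-only fit, F test against a robust mean-dependent prior, Benjamini-Hochberg adjustment) called 6 probe sets, 0.0207% of those tested, and 0 of the 146 members. With 3 arrays this test has little power at differences as small as those of the members, so the 0 does not show that no member varied. The smallest p of a member was 0.0138, that of Zfp235, with an adjusted p of 0.988 in this limma test. At an unadjusted p under 0.05 the test found 7 members (4.79%), against 4.66% of all probe sets. These were Zfp235, Zfp160, Zfp367, Zfp113, Zfp72, Zfp184 and Zfp120, a share near that of all probe sets. Their direction on array 1 is no support, since the family was picked with it in view.

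Other gene groups moved with array 1, and their part in the values of the Zfp genes was not tested. Of 14 immediate-early genes, which respond within minutes to stimuli, 13 were highest on array 1, with mean levels of 9.53, 8.42 and 8.46 on arrays 1, 2 and 3. Of the 8 DP markers 7 were lowest there, with mean levels of 11.43, 11.70 and 11.67. The 7 myeloid and dendritic markers had mean levels of 7.07, 6.51 and 6.80. Lyz2, Csf1r, Itgam, Itgax and Adgre1 were below background on every array. H2-Ab1 (9.26, 7.91 and 8.50) and Cd74 (8.83, 7.27 and 8.05) were not, and both were highest on array 1. The 4 B cell markers had 5.43, 5.17 and 5.31 and the 6 epithelial markers 6.38, 6.66 and 6.80. The sex of the mice goes with array 1 too and cannot be told apart from the cohort. By chromosome the members' median deviation on array 1 ran from -0.110 for the 5 on chromosome 9 to 0.103 for the 8 on chromosome 6. That of the 6 X-linked members, 0.005, lay within this range. These values do not separate sex from cohort, and the part of sex was not tested.

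The count above background depends on the limit. It fell to 54 members under a limit at the 99th percentile, and a limit set 1 above the median of the other-organ probe sets gave 93. The shares of all named genes under these other limits were not counted. Whether the members stand above all named genes there is therefore not known. The members nearest above the background limit were Zfp286 (7.31, 7.44 and 7.38), Zfp40, Zfp472, Zfp446 and Zfp109, and those nearest below it were Zfp128 (7.17, 7.35 and 7.35), Zfp46, Zfp273, Zfp90 and Zfp456. The highest numbered member was Zfp488, with 6.34 ± 0.06, and the first gene past the range was Zfp503, with 6.20 ± 0.12. Of the members 141 had 1 probe set and 5 had 2. For Zfp319 the brighter had a mean of 9.71 and the other 8.19, and for Zfp60 7.37 and 3.91. Those of Zfp141, Zfp395 and Zfp407 were closer, at 8.21 and 7.97, 8.96 and 8.87, and 9.64 and 9.15. None of the 5 pairs lay on different sides of the limit by the rule of all 3 arrays.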

How the data were processed

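Total RNA of 3 cohorts of DP thymocytes was measured on 1 array each. The authors deposited log2 expression values, 1 per probe set (35556, none missing), made with the R package affy per the submitters' processing notes. Its version and settings are not given in the sources here, and the unit was read from the values. The protocol text describes formaldehyde fixation without saying whether the RNA samples were fixed. Any 2 arrays' sorted values differ by at most 0.15, so a global change in RNA would not show.

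Genes were named from the platform's annotation (21789 probe sets with 1 symbol, 1621 with several, 12146 with none), and all 146 members matched a RefSeq gene ID with the same symbol. The members, gene lists and tests were chosen with earlier results of these data known. Background was set by 95 genes of other organs, of which 4 exceeded it on all arrays. Genes were named in the text by role, largest SD, largest and smallest deviation on array 1, nearness to the limit and probe set disagreement, beside those in the runs and sites shown. The 6617 lowest-numbered probe sets, without symbols, stayed out of the limma 3.58.1 (R 4.3.3) fit. The fit was tested on simulated data, where it did not recover the smallest 1-array difference tried, which was larger than those of the members. Differences as small as theirs were not simulated. Tables were handled with pandas 2.3.3 and numpy 2.4.6 in Python 3.11.15. Precision is limited by the 3 arrays.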

Additional observations from a re-analysis of the deposited data

Results flagged for a closer look

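A signal was seen in probe sets that no count of members uses. Of 7 probe sets annotated to several genes including a Zfp gene numbered to 500, 4 lay above background on all 3 arrays. They were those naming Zfp91 with Cntf (8.22, 8.31 and 8.25 on arrays 1, 2 and 3), Zfp442 with Zfp937 (7.51, 8.02 and 8.16), Zfp60 and Zfp59 with 6 other symbols (9.52, 9.84 and 9.96) and the 6 genes of the chromosome 7 run (8.72, 8.56 and 8.85). Which of the named genes gave the signal cannot be told from these values. By their own probe sets, 53.4% of the members and 41.6% of all named genes lay above background on all 3 arrays. The share over all probe sets with several symbols was not counted, so 4 of 7 is not shown to be an excess.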

How the results depend on the processing

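Of 39 values recomputed under an alternative, 36 stayed within a set band. For counts the band was 1.5 times, and for the median deviation 0.033, the SD of the 3 arrays' median deviations. Both bands are wide. Counts of 54 and 93 stay within the first beside 78, and 0.033 exceeds the size of the median deviation itself, -0.032. The 36 are therefore no evidence of stability, and the 3 others are counts over a different number of genes. The count of members above background was 54 with the 99th percentile as limit and 93 with the median plus 1, and 79 to 81 without 1 array. The shares of all named genes under these settings were not counted. With all 341 genes named Zfp and a number, with or without letters after it, 174 (51.0%) were above background and 170 were lowest on array 1. The shares of all named genes were 41.6% and 39.3%. Among the 78 members above background, 39 (50.0%) were lowest on array 1, against 41.4% of the 8304 named genes above background. The median deviation on array 1 was negative throughout, from -0.020 without array 2 to -0.048 as a mean over members, and cannot be had without array 1. Its direction was in view when the family was picked, so the sign is no support. No member passed the limma variance test under any prior, normalization or left-out array, with 5 to 9 at an unadjusted p under 0.05, in a test with little power at differences of this size. The planned counts of zinc fingers per protein were not run, since no protein sequences were used here. No paired analysis was possible because there is 1 group.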
